A study of Drosophila melanogaster with 27 samples.

Results

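The Y chromosome was followed through every deposited table of the series. All windows and peaks that the files place on Y were taken, with no other condition: 550 of 70434 windows in the 3 tables that set fruC-null against control brains, 678 of 41604 peaks in the 12 lists of chromatin-bound factors, and 1097 of 17154 peaks in the H3K9me3 list, which makes 2325 of 129192 entries. The last Y peak ended at position 3667352, the last base of Y in the release 6 assembly, so the lists and the reference sequence share their coordinates.

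CUT&RUN, in which an antibody directs a nuclease to the DNA next to a bound protein, was run on brains of third-instar larvae. The fruC-null brains (brat11/Df(2L)Exel8040; fruC-DelC/fruAj96U3) had 2 replicates of 25 pooled brains for each of H3K27ac, H3K4me3 and H3K27me3. The control brains (brat11/Df(2L)Exel8040; fruC::myc) had the same for these marks and for H3K9me3, and also 2 replicates of 50 pooled brains for each chromatin factor: Trl, Caf-1, Su(z)12, Su(H), and FruC, which was detected through its Myc tag (FruC-Myc) and with a second antibody, FruCOM. The 1 IgG sample was not analysed here. Both genotypes thus carry the brat allele over a deficiency, which fills the brain with extra type II neuroblasts, so the material is rich in those cells but remains whole brain, and peak lists hold no expression to check this label. Whether replicates came from separate crosses is not stated, and p-values measure only the spread between these libraries. The sources used here do not give how many larvae of a pool were male.

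In flies only males carry Y. It is almost wholly heterochromatin, packed with nucleosomes that bear H3K9me3, and it consists mostly of simple satellites and transposable elements. Its few protein-coding genes are used in the male germline, several of them with giant introns filled with satellite DNA. Trl, also called GAGA factor, binds GA-rich DNA in euchromatin and is also known to associate with GA-rich satellites. Su(H) is the DNA-binding protein of Notch signalling, and Su(z)12 and Caf-1 belong to the Polycomb complex that deposits H3K27me3.

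The assembled Y is short of sequence and repeated. It held 3410 kb of called bases beside 258 kb of unknown bases in 211 gaps, and 84.4% of its 31-mers (stretches of 31 bases) occurred more than once in the assembled genome, against 8.44% to 16.8% on the other nuclear chromosomes. Read depth, which peak calls and their Q-values depend on, is unknown from the lists. How reads that match several places were treated is not given in the sources used here.

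The regions below carry the main pattern of the Y peaks. Peaks of the 12 factor lists that shared a base were joined into 178 Y regions, and 11 of these had a peak in all 12 libraries. Those 11 were made of short units in tandem: AAGAG led in 6 and AAGAC in 2, while AAGAT led in 1, the unit AAGAGAG in 1 and a unit of 12 bases in 1, where a unit stands for all its rotations on both strands. Of these, 4 are printed from the plus strand of the RefSeq release 6 assembly, with exact tandem repeats of at least 30 bases in capitals. The AAGAGAG region, chrY:132450-132630, is given in whole. Of the region with the unit of 12 bases 177 of 183 bases are given (chrY:200701-200877). The AAGAC region between genes is given by 201 of its 217 bases (chrY:3560304-3560504), and the AAGAT region by its first 300 bases (chrY:1417455-1417754). The last sequence, at chrY:3019541-3019806, is the opposite case, a region of 3 libraries whose 31-mers mostly occur nowhere else, and it holds no tandem repeat.
AAGAGAG, kl-5 intron: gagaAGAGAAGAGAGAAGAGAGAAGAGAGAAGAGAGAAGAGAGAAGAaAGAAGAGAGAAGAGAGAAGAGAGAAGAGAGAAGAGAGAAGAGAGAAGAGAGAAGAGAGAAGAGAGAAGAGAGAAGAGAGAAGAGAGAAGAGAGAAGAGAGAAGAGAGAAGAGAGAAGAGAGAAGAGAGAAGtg
Unit of 12 bases, between genes: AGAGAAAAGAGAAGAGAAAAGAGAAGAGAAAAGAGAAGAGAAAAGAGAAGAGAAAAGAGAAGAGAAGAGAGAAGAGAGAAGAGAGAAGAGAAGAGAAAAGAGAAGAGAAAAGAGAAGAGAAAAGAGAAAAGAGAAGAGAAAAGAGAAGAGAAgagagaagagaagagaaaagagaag
AAGAC, between genes: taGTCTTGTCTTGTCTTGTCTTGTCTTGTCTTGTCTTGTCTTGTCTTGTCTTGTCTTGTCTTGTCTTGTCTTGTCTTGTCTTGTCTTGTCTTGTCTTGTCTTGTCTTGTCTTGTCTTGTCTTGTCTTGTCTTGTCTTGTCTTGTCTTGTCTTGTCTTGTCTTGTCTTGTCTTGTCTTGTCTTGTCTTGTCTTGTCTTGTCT
AAGAT, between genes: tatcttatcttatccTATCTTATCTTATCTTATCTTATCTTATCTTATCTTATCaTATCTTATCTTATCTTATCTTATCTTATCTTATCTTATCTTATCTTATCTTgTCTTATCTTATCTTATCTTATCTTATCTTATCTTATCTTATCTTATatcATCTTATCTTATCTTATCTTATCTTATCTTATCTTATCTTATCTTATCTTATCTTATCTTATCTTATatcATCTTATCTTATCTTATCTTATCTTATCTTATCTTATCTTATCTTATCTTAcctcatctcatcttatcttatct
Mostly unique, between genes: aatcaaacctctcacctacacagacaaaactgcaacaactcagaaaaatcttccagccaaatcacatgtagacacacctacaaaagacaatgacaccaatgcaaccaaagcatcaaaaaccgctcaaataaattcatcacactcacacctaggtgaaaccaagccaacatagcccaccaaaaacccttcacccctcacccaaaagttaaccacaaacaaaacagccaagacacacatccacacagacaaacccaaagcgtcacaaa

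Such sequence is rare. Exact tandem repeats of at least 30 bases (unit up to 12 bases) filled at least 50% of the bases in 40 of 16832 tiles of 200 bases on Y (0.238%) and in 552 of 668175 tiles elsewhere (0.0826%). They filled as much of 16 of the 178 Y regions (8.99%), among them 11 of the 11 in all 12 libraries, 2 of the 28 in 6 to 11 libraries, 1 of the 63 in 2 to 5 and 2 of the 76 in 1. On other chromosomes 143 of 15945 regions (0.897%) were of this kind, among them 21 of the 126 in 12 libraries. Regions in all 12 libraries stood at 3.23 per Mb on Y and at 0.943 per Mb elsewhere.

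Most of the 11 shared regions ranked near the top of each list. The AAGAT region did so least, at rank 1028 of 1141 in Trl replicate 1. In the AAGAGAG region, inside an intron of kl-5, an axonemal dynein heavy chain gene, the fold enrichment at the summit over the background that MACS2 modelled was 72.9 and 50.3 for FruC-Myc, 71.2 and 69.0 for FruCOM, 77.9 and 77.0 for Su(H), 90.5 and 88.3 for Trl, 73.8 and 70.0 for Su(z)12, and 77.5 and 76.5 for Caf-1. In the AAGAC region between genes it was 46.0 and 40.4 for FruC-Myc, 50.6 and 52.2 for FruCOM, 46.6 and 46.0 for Su(H), 29.4 and 33.9 for Trl, 45.1 and 48.2 for Su(z)12, and 41.2 and 42.5 for Caf-1. This AAGAC region was thus lowest with Trl, and the AAGAGAG region highest with Trl. The other shared AAGAC region, in an intron of kl-2, had 37.4 and 37.5 for Trl, within the 32.5 to 41.6 of the other libraries. By -log10 Q-value the AAGAC region between genes was the first Y peak in 9 libraries and the AAGAGAG region in both Trl libraries. FruC-Myc replicate 1 was led by an AAGAG region in an intron of Ppr-Y, chrY:1642134-1642581, with a -log10 Q-value of 1353. Of each list's 50 peaks with the highest -log10 Q-value, 6 to 11 lay on Y, whereas Y held 0.870% to 6.63% of a list's peaks.

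**Figure D1:**
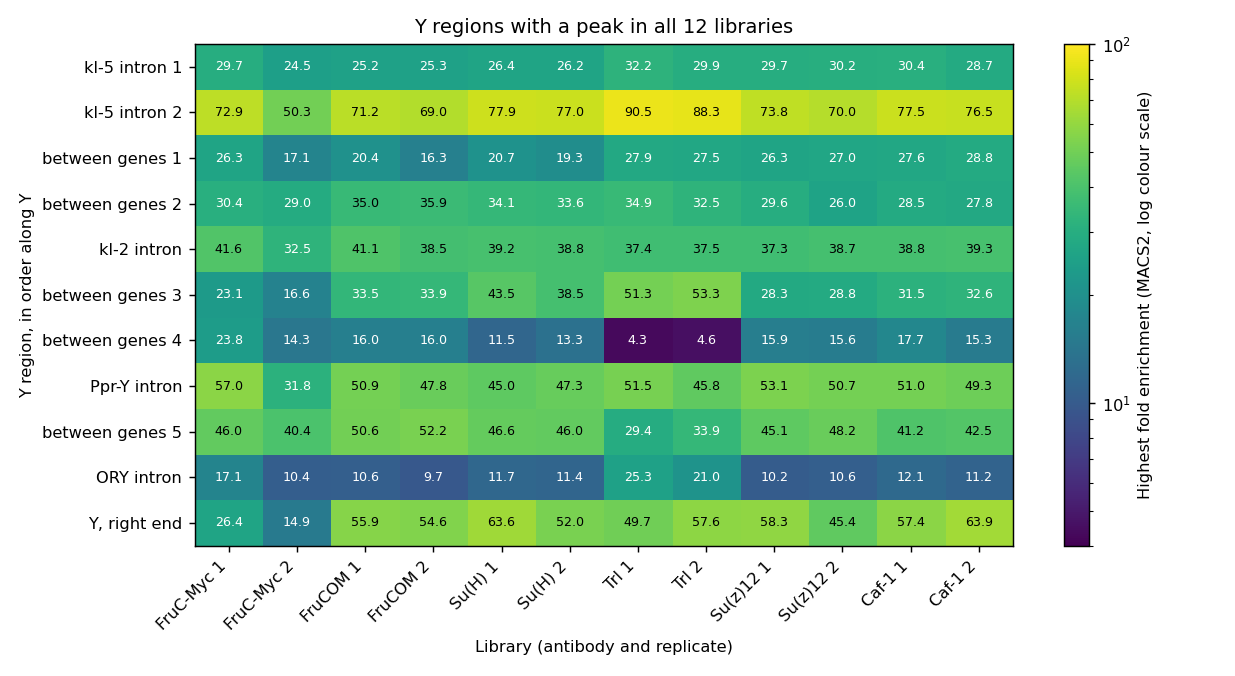
Fold enrichment (number and log colour scale) of the 11 Y regions with a peak in all 12 libraries, one row a region in order along Y and one column a library. The row kl-5 intron 2 is the AAGAGAG region, from 50.3 to 90.5, and the row between genes 4 is the AAGAT region, where the Trl libraries had 4.34 and 4.55.

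Trl differed from the other antibodies in some of these regions and not in most. This comparison was chosen after its values were seen and was given no test. Both Trl libraries were above the other 10 in 3 of the 11 Y regions and below them in 2. Over all 137 regions of the genome with a peak in 12 libraries, 16 (11.7%) were above in this way and 53 (38.7%) were above or below. With 5 of 11 regions above or below, Y was near that background. In the AAGAT region Trl had a fold of 4.34 and 4.55, against a lowest value of 11.5, a median of 15.7 and a highest value of 23.8 in the other 10 libraries. In an AAGAG region of an ORY intron, chrY:3562334-3562645, Trl had 25.3 and 21.0, against 9.73, 10.9 and 17.1 (lowest, median and highest). ORY is a male germline gene. The region at the right end of Y, chrY:3667253-3667352, also AAGAG, had overlapping values of 49.7 and 57.6 for Trl and of 14.9 to 63.9 for the others. Of the 21 Y regions with a Trl peak, 13 were tandem repeats, including all 11 shared ones. A further AAGAG region, chrY:3652878-3652956 in an intron of CCY, had a peak in Trl replicate 1 alone, at a -log10 Q-value of 154, and none in Trl replicate 2.

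The letters GAGAG, the core that Trl is known to bind, were searched on both strands in 200 bases around the centre of each region. They were in 10 of the 21 Y regions with a Trl peak (47.6%), in 2 of the 11 shared regions (18.2%) and in 82 of all 178 Y regions (46.1%), against 23.9% of all 200-base tiles of Y and 21.4% of those elsewhere. The letters AAGAG, which overlap GAGAG, were in 71.4%, 72.7% and 44.4% of the same 3 sets of regions, against 34.8% of Y tiles and 31.5% of other tiles. H3K9me3 peaks on Y, searched in the same way, held GAGAG in 34.3% and AAGAG in 37.6% of cases, both above the Y tiles. Pure AAGAG repeats do not hold GAGAG, and a match of letters says nothing on binding.

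Which tandem repeats carried a peak went with their unit. Y held 48 exact stretches whose longest run of one unit was at least 60 bases, a limit chosen after seeing the data. The 5 units of the shared regions accounted for 16 of them. Since these units were taken from the 12-library regions of Y, their overlap with those regions is largely fixed by that choice and is a description only: 16 of 16 overlapped a factor region, 15 of 16 a region of 12 libraries and 16 of 16 an H3K9me3 peak. The 20 stretches whose unit has no G or C, such as AATAT and AATATAT in introns of kl-3, kl-5 and WDY, overlapped neither a factor region nor an H3K9me3 peak in any case, although the longest ran over 368 bases. The remaining 12 stretches overlapped a factor region in 10 cases and H3K9me3 in 4, and never a region of 12 libraries. On other chromosomes the 7 stretches of AAGAG or AAGAGAG overlapped a region of 12 libraries in 7 cases, and the 86 without G or C overlapped no region and no H3K9me3 peak. The remaining units elsewhere made 447 stretches, of which 27 overlapped a region of 12 libraries, 163 any factor region and 364 an H3K9me3 peak. With limits of 40 and 100 bases the stretches without G or C on Y, 30 and 12 of them, again overlapped nothing, while those of the 5 units, chosen as above, overlapped a region of 12 libraries in 21 of 26 and in 9 of 9 cases. Base composition moved with these counts by construction, and its part in them was not tested.

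**Figure D2:**
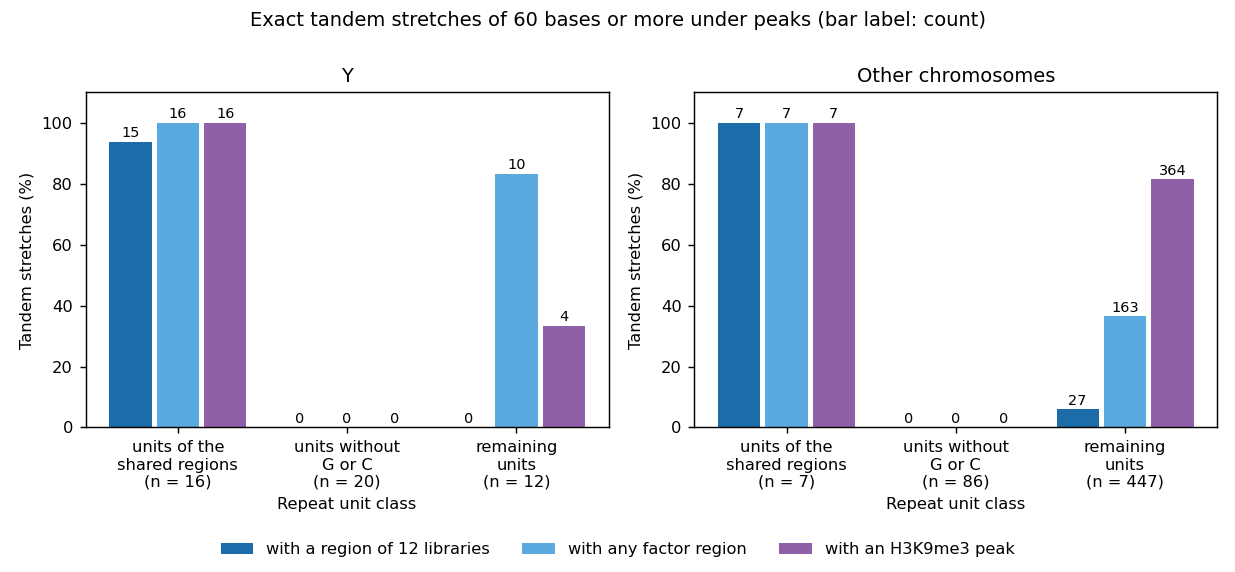
Share of exact tandem stretches of at least 60 bases (bars, in percent, with counts above) that overlapped a factor region in 12 libraries, any factor region or an H3K9me3 peak, on Y (left) and on other chromosomes (right), by class of repeat unit. All 16 Y stretches with the units of the shared regions overlapped a region and an H3K9me3 peak, and none of the 20 without G or C did.

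Most of the shared regions lay beside gaps of the assembly: 8 of the 11 were within 500 bp of a run of unknown bases, as were 41 of all 178 Y regions (23.0%) and 5.83% of the known bases of Y. The sequence in the gaps is not known here, so how many copies of each satellite contribute reads to these regions cannot be told apart from how strongly each copy was bound. The regions were also not set against the 1 IgG sample. Whether their peaks depend on the antibody, and so mark binding at all, was not tested. A region of 11 libraries, chrY:322568-324185, was a tandem array of AATAGAC units. Its -log10 Q-value was 172 and 14.8 for FruC-Myc, 61.9 and 59.8 for FruCOM and 76.6 and 48.8 for Su(H). It was 86.4 and 30.7 for Su(z)12 and 111 and 91.7 for Caf-1. Trl had a peak there in replicate 2 only, at 5.78.

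To ask how Y peaks differ from others, each library's Y peaks were set against all its other peaks, and the 12 differences were tested by a two-sided exact sign-flip permutation test with Benjamini-Hochberg adjustment over 5 comparisons. Y peaks lay in H3K9me3 far more often than other peaks. The share overlapping an H3K9me3 peak ranged from 75.0% (FruC-Myc replicate 1) to 95.5% (Trl replicate 2) on Y and from 12.6% to 57.6% elsewhere. It averaged 83.9% on Y and 27.3% elsewhere, a difference of 56.7 percentage points ± 12.8 (SD, n = 12), higher on Y in 12 of 12 libraries (exact permutation p = 0.000488, the smallest this test can give, adjusted p = 0.00122). H3K9me3 peaks also covered more of Y itself, 18.0% of its known bases against 4.47% to 10.7% of the other nuclear chromosomes. How much of the difference in overlap is set by the chromosome was not tested. The mean share of repeated 31-mers in a peak was 94.3% on Y and 22.8% elsewhere, a difference of 71.6 percentage points ± 17.0 (SD, n = 12). Since 84.4% of all 31-mers of Y are repeated, against 8.44% to 16.8% on the other nuclear chromosomes, a difference of about this size is set by the chromosome, and its test (exact permutation p = 0.000488, adjusted p = 0.00122) says nothing of the peaks. The smallest gap was that of Su(H), with 95.8% and 93.8% on Y and 52.8% and 59.6% elsewhere. The 12 libraries come from 6 antibodies, and with 1 mean per antibody both differences kept their size but the smallest p the exact permutation test allows is 0.0313, adjusted p = 0.0781. When only H3K9me3 peaks with a -log10 Q-value above 100, merged within 3000 bp, were used, the overlap differed by 18.1 points.

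The density of peaks on Y did not differ from elsewhere by more than the spread between libraries. The log2 ratio of peaks per Mb on Y over other chromosomes averaged -0.25 ± 1.00 (SD, n = 12), higher on Y in 4 of 12 libraries (exact permutation p = 0.403, adjusted p = 0.403). The antibodies went in different directions. Su(H) had 9.68 and 9.97 peaks per Mb on Y against 4.32 and 3.58 elsewhere, and Caf-1 had 26.1 and 20.5 on Y against 19.9 and 12.5 elsewhere. FruC-Myc had 41.1 and 13.2 peaks per Mb on Y against 115.4 and 38.4 elsewhere, and Trl had 4.11 and 6.45 on Y against 8.43 and 11.2 elsewhere. Against chromosome 4 alone the ratio was -0.63 ± 1.03 (SD, n = 12; exact permutation p = 0.0596, adjusted p = 0.0745). Without peaks of tandem repeat it was -0.95 ± 1.36 (SD, n = 12; exact permutation p = 0.0317, adjusted p = 0.0529). Peaks of at least 50% unique 31-mers were too few on Y for a ratio of reliable size, with none in 7 of the 12 libraries and 1 or 2 in each of the other 5. Factor regions covered 0.503% of the unique 31-mers of Y, against 2.92% to 4.61% on the other nuclear chromosomes.

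The median -log10 Q-value was higher on Y than elsewhere in 10 of 12 libraries, by 17.7 ± 51.3 (SD, n = 12; exact permutation p = 0.00732, adjusted p = 0.0122), a call that 1 mean per antibody did not give (adjusted p = 0.104, exact permutation test). Trl replicate 1 alone, with 14 Y peaks of which 11 were above 100, had a median of 186 on Y against 5.62 elsewhere, and without it the mean difference was 2.92. Without peaks whose bases were at least 50% tandem repeat, an alternative chosen after seeing the data that also drops Trl replicate 1, with under 3 Y peaks left, the difference was -0.52 ± 2.12 (SD, n = 11; exact permutation p = 0.441, adjusted p = 0.441), against 2.92 in the same 11 libraries with all their peaks. Y peaks overlapped a peak of the other replicate in 73.7% of cases, against 65.2% elsewhere, a difference of 8.55 points ± 12.6 (SD, n = 12; higher on Y in 8 of 12, exact permutation p = 0.0293, adjusted p = 0.0366), which did not pass the threshold without Trl replicate 1 (6.08 points), Trl replicate 2 (7.86), Su(H) replicate 1 (7.71), Su(z)12 replicate 2 (8.14), Caf-1 replicate 1 (7.71) or Caf-1 replicate 2 (8.19). Each pair of replicates enters from both sides, so the 12 values are 6 pairs, and with 1 mean per antibody the call was lost (exact permutation p = 0.156, adjusted p = 0.195). Without the tandem repeats, and again without Trl replicate 1, this difference was -3.19 ± 11.9 points (SD, n = 11; exact permutation p = 0.385, adjusted p = 0.441), against 6.08 in the same 11 libraries with all their peaks.

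**Figure D3:**
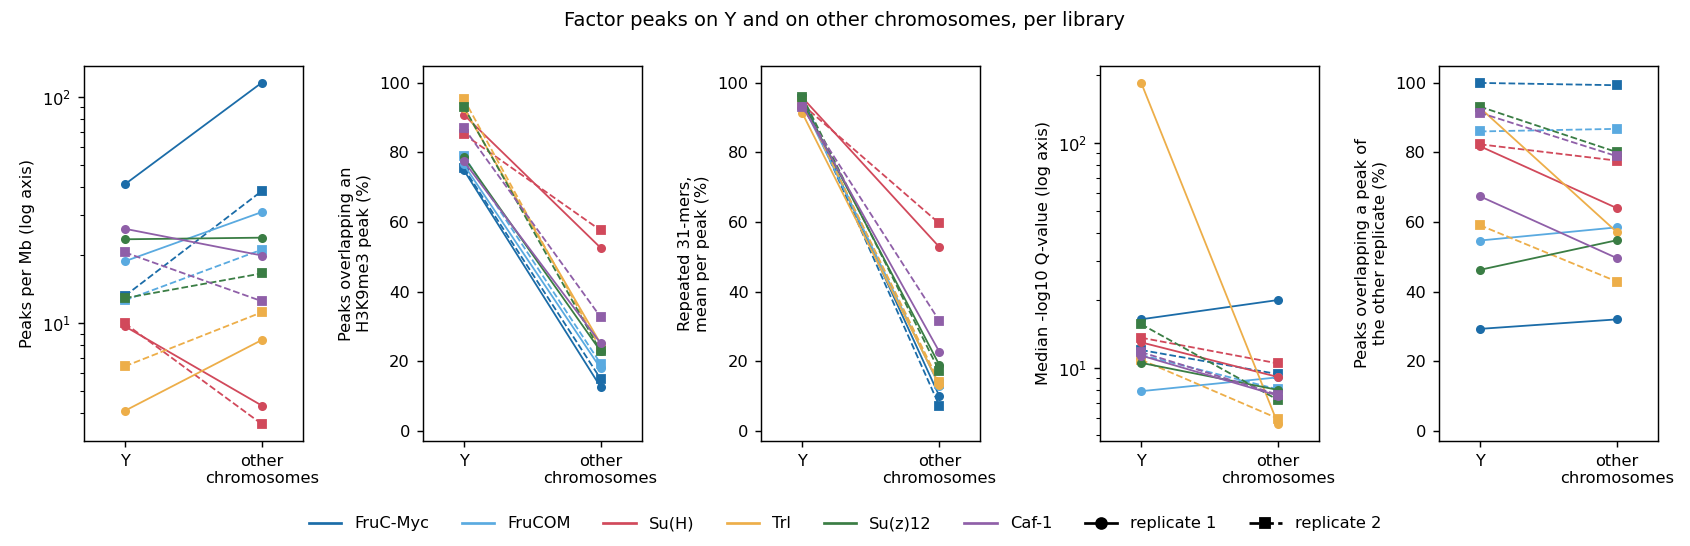
Each line joins a library's value for its Y peaks (left) to that for its peaks on other chromosomes (right), coloured by antibody, for 5 quantities: peaks per Mb (log axis), share overlapping an H3K9me3 peak, mean share of repeated 31-mers, median -log10 Q-value (log axis) and share found in the other replicate. The panels of H3K9me3 overlap and repeated 31-mers show every library higher on Y, with means of 83.9% against 27.3% and of 94.3% against 22.8%.

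Of the 178 Y regions 76 (42.7%) had a peak in 1 library and 63 (35.4%) in 2 to 5, against 55.7% and 31.7% of the 15945 regions elsewhere. FruC-Myc was the antibody with most Y regions of its own. FruC-Myc peaks fell in 140 regions, 41 of them with both replicates, and 57 regions had FruC-Myc peaks only, 7 of them with both replicates. Caf-1 had 92 regions, Su(z)12 76, FruCOM 61, Su(H) 35 and Trl 21. Caf-1 was alone in 17 regions, and no other antibody was alone in more than 4. The FruC-Myc lists were also the longest of the series, with 15563 and 5174 peaks. Regions of 1 antibody were not counted on other chromosomes, so these counts show no trait particular to Y. The 7 regions of both FruC-Myc replicates alone reached a -log10 Q-value of 16.4 to 59.9 in replicate 1 and of 4.58 to 9.37 in replicate 2. They lay in copies of the retrotransposons mdg1 and opus, in overlapping Quasimodo and 1360 elements, in an intron of WDY and in 3 places between genes.

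A region with its highest -log10 Q-values for Fru, and without H3K9me3, lay between genes at chrY:2870733-2870964. Its -log10 Q-value was 257 and 34.6 with FruC-Myc and 46.3 and 28.4 with FruCOM. The other antibodies were at 12.0 or below, with no Su(H) peak and with Trl at 4.23 and 10.5. It was chosen after its values were seen. Of its 31-mers 41.6% were found once in the genome, and it overlapped an H3K27ac window and neither an H3K4me3 nor an H3K27me3 window. By this value all 4 FruC-Myc and FruCOM libraries were above every other library here, and no test was made. Q-values depend on read depth, which is unknown, and the FruC-Myc lists were the longest. The order is thus no measure of which factor was bound more. The region chrY:2867419-2867781 had the same order, with 106 and 14.1 for FruC-Myc, 18.7 and 15.3 for FruCOM and 2.75 for Caf-1 replicate 1.

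Over all bases, H3K9me3 peaks covered more of Y than of any other nuclear chromosome, but not within repeated or within unique sequence. They covered 18.0% of the known bases of Y, against 4.47% to 10.7% of the others, where the small chromosome 4 was the highest. Of repeated 31-mers they covered 19.8% on Y, against 19.1% to 29.9% on the others. Of unique 31-mers they covered 8.60% on Y, against 3.12% to 8.95% on the others. The median -log10 Q-value was 10.3 on Y and 8.92 elsewhere, and the median fold 4.33 on Y and 4.17 elsewhere. Their 5 strongest Y peaks included 4 at shared tandem regions, in introns of kl-2 (-log10 Q-value 146.5), kl-5 (138) and Ppr-Y (111) and between genes (119). The kl-2 and kl-5 peaks were the first and second of the whole H3K9me3 list of 17154. The other was a block of 8026 bp, chrY:1019853-1027878, with a value of 112.2 and no tandem repeat. Y held 6 of the 21 H3K9me3 peaks with a -log10 Q-value above 100. H3K9me3 was deposited as 1 list, so it has no replicate error.

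The 3 tables that set fruC-null against control brains placed 92 H3K27ac, 270 H3K4me3 and 188 H3K27me3 windows on Y, which is 0.344%, 1.17% and 0.910% of each table. The size and direction of the change are columns of the study's own comparison, with no value per sample, and were not used, so the windows are described here by where they lie. The H3K27ac windows covered 97.5 kb or 2.86% of the known bases of Y, against 20.02% to 23.7% of the other chromosomes. H3K4me3 windows covered 361 kb or 10.6% of Y, against 21.1% to 29.0% elsewhere. H3K27me3 windows covered 181 kb or 5.30% of Y, against 16.4% to 22.9% elsewhere. Windows of all 3 tables thus covered less of Y than of any other chromosome, the least for H3K27ac. By the study's methods, the tables come from a search for regions whose mark level differed between the genotypes. The shares are therefore not those of bases that carry a mark. Typical windows were of equal length, with medians of 800, 1000 and 800 bp for H3K27ac, H3K4me3 and H3K27me3 on Y and the same elsewhere.

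Most Y windows touched an H3K9me3 peak. An H3K9me3 peak overlapped 85.9% of the H3K27ac, 92.2% of the H3K4me3 and 87.2% of the H3K27me3 windows on Y, against 11.2%, 22.03% and 26.6% of those elsewhere. Of window bases, 64.0%, 66.5% and 60.4% lay in H3K9me3 peaks on Y, against 6.01%, 15.1% and 14.1% elsewhere. H3K9me3 peaks covered 18.0% of all known bases of Y and 4.47% to 10.7% of those of other nuclear chromosomes. The windows of the marks also lay on each other. On Y 83.5% of the H3K27ac window bases were in H3K4me3 windows and 54.5% in H3K27me3 windows, against 60.5% and 29.5% elsewhere. For H3K27me3 window bases, 67.2% were in H3K4me3 windows on Y against 37.3% elsewhere. The 3 marks use separate libraries, but each mark's windows rest on the same reference copies of repeats, and no test was made of these shares.

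**Figure D4:**
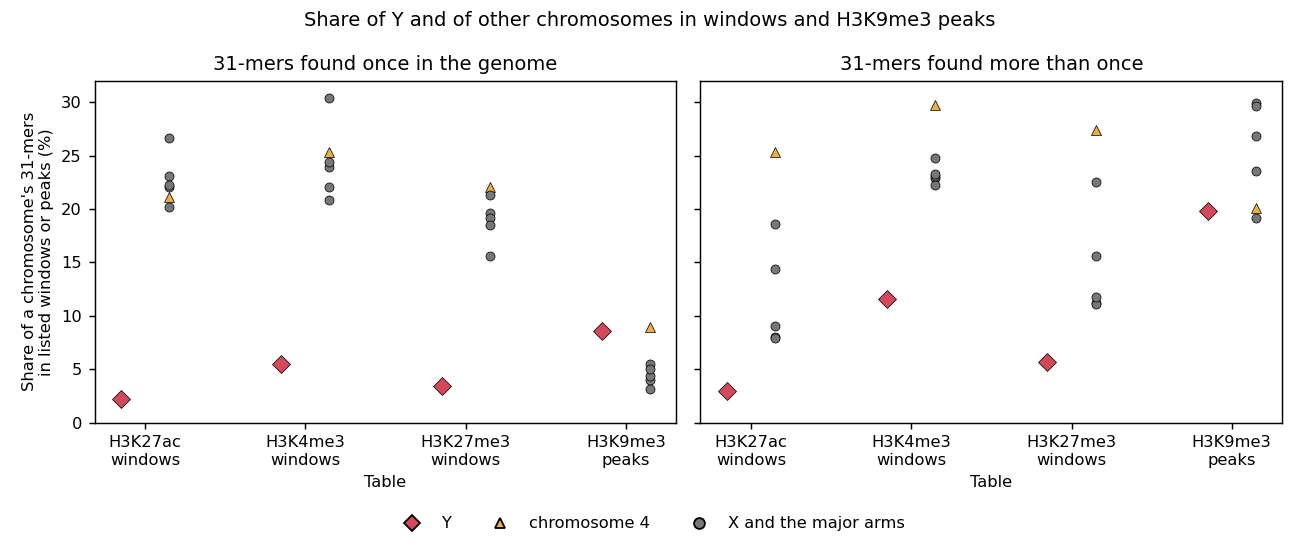
Share of each chromosome's 31-mers, in percent, that starts in a listed H3K27ac, H3K4me3 or H3K27me3 window or in an H3K9me3 peak, for 31-mers found once in the genome (left) and more than once (right). Y, the diamond left of each group, is lowest for the 3 tables in both panels, while 8.60% of its unique 31-mers were in H3K9me3 peaks, next to chromosome 4 at 8.95%.

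Repeats and the sex of the larvae both bear on what these windows can show. A share of at least 50% unique 31-mers was reached by 7 of 92 H3K27ac, 12 of 270 H3K4me3 and 6 of 188 H3K27me3 windows on Y, against 94.2%, 89.3% and 89.0% of the windows elsewhere. The same held for 45 of 1097 H3K9me3 peaks on Y (4.10%, against 60.2% elsewhere) and for 6 of 678 factor peaks (0.885%, Wilson 95% interval 0.406% to 1.92%, counting error only). Of the 31-mers found once in the genome and on Y, 2.19% were in H3K27ac, 5.45% in H3K4me3 and 3.46% in H3K27me3 windows, against 20.2% to 26.6%, 20.8% to 30.4% and 15.65% to 22.1% on other chromosomes. For windows in repeats, a change on Y and a change at copies of the same repeat on other chromosomes cannot be told apart. For windows of unique sequence, a change of the mark and another share of males in the fruC-null than in the control pools cannot be told apart. In all lists, fewer copies of Y in a pool and less of a mark or factor on each copy cannot be told apart either. The part of sex and of repeats was not tested.

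The windows of mostly unique sequence were few enough to describe. The longest lay between genes at chrY:3017401-3020200 for H3K4me3, with 62.9% unique 31-mers, and H3K27ac (chrY:3018001-3020000, 69.2%) and H3K27me3 (chrY:3017451-3020100, 65.2%) windows lay on the same place, upstream of FDY. FDY itself, a Y copy of an autosomal gene, starts at chrY:3022289 and had no window. This stretch also held 4 of the 6 mostly unique factor peaks, from FruC-Myc replicate 1, Su(z)12 replicate 1, Caf-1 replicate 1 and Caf-1 replicate 2, with -log10 Q-values of 33.4, 5.23, 10.3 and 3.93. The Caf-1 peaks of the replicates did not overlap, at chrY:3019541-3019806 in replicate 1 and chrY:3018587-3018691 in replicate 2. Other mostly unique windows lay around shared tandem regions in kl-2, kl-5, Ppr-Y and ORY and in an intron of kl-3. Those in Ppr-Y (all 3 marks), in ORY (H3K27ac and H3K4me3) and at the end of CCY (H3K4me3) were also the 6 windows that touched an exon of the 12 genes described next.

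Y genes were touched in their introns and hardly in their exons. Of the 12 genes of a fixed list of Y-linked protein-coding genes, an H3K4me3 window overlapped 7, an H3K27ac window 6, an H3K27me3 window 6, an H3K9me3 peak 8 and a factor region 7. The dynein genes kl-2, kl-3 and kl-5, with Ppr-Y, WDY and ORY, overlapped all 5 kinds of feature, and CCY overlapped 3. Ppr-Y, which spans 248 kb, had 18 H3K4me3 windows, 5 H3K27ac windows and 68 H3K9me3 peaks, the most of the 12 genes, and 4 H3K27me3 windows, against 5 in kl-3. PRY had 1 H3K9me3 peak, and ARY, FDY, Pp1-Y1 and Pp1-Y2 had no feature of any kind. These 4 are short, between 0.954 and 1.74 kb. The exons of the 12 genes, 61.3 kb in all, were covered to 0.762% by H3K27ac, 1.06% by H3K4me3 and 0.272% by H3K27me3 windows, to 0.0865% by H3K9me3 peaks and to 0% by factor regions. Their introns, 881 kb of known bases, were covered to 1.94%, 6.88% and 1.53% by the windows of H3K27ac, H3K4me3 and H3K27me3, to 13.75% by H3K9me3 and to 0.714% by factor regions. Unique 31-mers made up 87.1% of the exon bases and 23.2% of the intron bases, and the part of sequence in this difference was not tested.

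**Figure D5:**
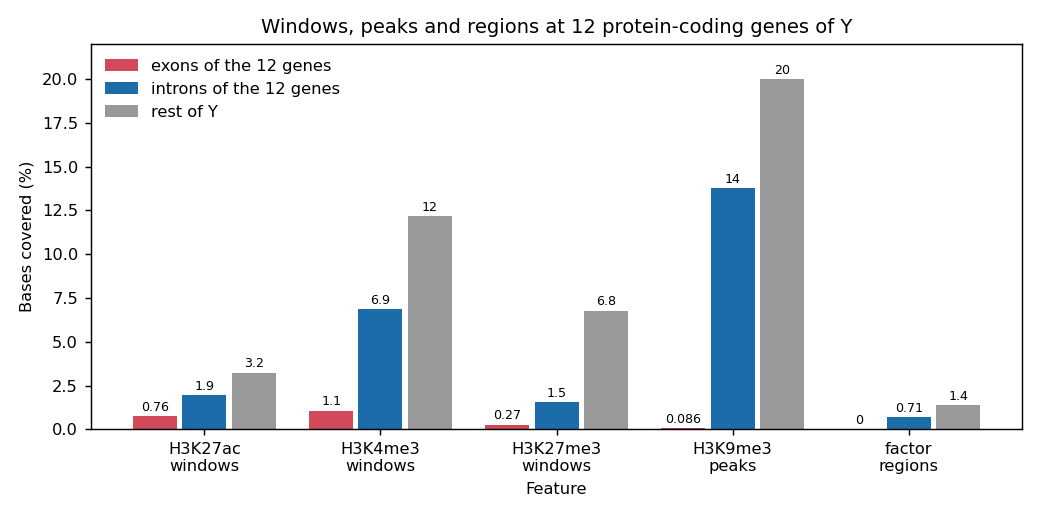
Share of bases, in percent, covered by windows, H3K9me3 peaks or factor regions in the exons and introns of 12 protein-coding genes of Y and in the rest of Y (bars from 0). Exons are lowest for every feature, from 0% for factor regions to 1.06% for H3K4me3 windows.

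The densest stretch of Y held the Su(Ste) repeats, whose small RNAs silence the X-linked Stellate genes in the male germline. Of the 100 kb steps along Y, the 3 with most factor regions lay side by side from 800 to 1100 kb. They made up 8.07% of the known bases of Y and held 56 of the 178 regions (31.5%), 21 of the 28 in 6 to 11 libraries and none of those in 12. H3K27ac, H3K4me3 and H3K27me3 windows covered 12.5%, 24.4% and 21.4% of it, and H3K9me3 peaks 26.99%. Windows of all 3 marks overlapped 44 of its 56 regions, out of 58 such regions on the whole of Y. A Trl peak lay in 1 of the 56. Their highest -log10 Q-values ran from 2.82 to 79.9. The longest H3K27ac and H3K4me3 windows of Y were here, 7250 bp at chrY:1019501-1026750 and 10500 bp at chrY:1019401-1029900, with 0.437% and 0.813% unique 31-mers.

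Within this stretch lay 24 of the 27 Su(Ste) copies. Over the family, 3 copies overlapped an H3K27ac window, 8 an H3K4me3 window, 10 an H3K27me3 window, 19 an H3K9me3 peak and 1 a factor region, and 7 copies had no feature. Of the 5 annotated copies of Mst77Y, a Y family derived from the sperm chromatin gene Mst77F, 2 overlapped an H3K9me3 peak and none a window or a factor region. Of the other 149 annotated Y genes and elements, 16 overlapped at least 3 of the 5 kinds of feature. They were 13 transposable elements and the pseudogenes CR41504, CR46279 and CR46150. The elements were 4 of 4 copies of opus, 3 of 57 of 1360, 1 of 3 of S, 1 of 2 of G6 and the only copies of 1731, blood, mdg1 and 17.6. Unique 31-mers made up 0% to 29.8% of the elements and 8.18% to 58.6% of the pseudogenes.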

How the data were processed

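The deposited peak lists and window tables were used as given, with no reads. Per the authors' methods, cutadapt and bowtie2 (local mode, BDGP6) preceded peak calling by MACS2, which ran per replicate and for factors on short fragments only. Their deposited lists give each peak's fold enrichment and -log10 Q-value. H3K9me3 was deposited as 1 list, and how its replicates were joined is not stated. The deposited diffReps tables, made with a sliding window, hold positions, lengths in bp, and the authors' own direction, log2 change, adjusted p-value and gene columns, none of which was used. Some windows run past a chromosome's end and were cut there. Columns of samples of other series numbered 0. Neither the ENCODE blacklist nor the removal of peaks in H3K9me3, both in the study's methods, was applied here. Nor was the study's limit for Fru peaks, a -log10 Q-value above 100. It was passed by 18 of 140 and 6 of 45 FruC-Myc peaks on Y in replicates 1 and 2. Over all chromosomes 1232 of 15563 and 52 of 5174 passed it.

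Sequence came from the RefSeq release 6 assembly and genes from Ensembl 115. Each 31-mer, with its reverse complement, was counted over all sequences of the assembly, unplaced scaffolds and the mitochondrial genome included, and a peak's repeated share is that of its 31-mers seen more than once. Overlap required 1 bp. The 5 comparisons left out a library with under 3 Y peaks. Scripts for 31-mers, tandem repeats, merging and the permutation test were tested on simulated data. Python 3.11.15, NumPy 2.4.6 and SciPy 1.17.1 were used.

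The members, gene lists and tests were chosen with earlier results of these data known. Named were 12 Y genes, the families Su(Ste) and Mst77Y, other Y genes with at least 3 of 5 kinds of feature, the 5 Y peaks of highest -log10 Q-value in the FruC-Myc, Trl and H3K9me3 lists, and regions with a peak in most libraries. Alternatives were a -log10 Q-value above 10, means per antibody, each library left out, other reference chromosomes, other overlap limits, other measures of repeats and density, and, chosen after seeing the data, peaks without tandem repeats and libraries of 1 name prefix.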

Additional observations from a re-analysis of the deposited data

How the results depend on the processing

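Each of the 5 comparisons kept its direction when any 1 library was left out. The log2 density ratio then ran from -0.40 to -0.13, the H3K9me3 difference from 55.3 to 59.3 points, the repeated share from 70.0 to 75.0 points, the -log10 Q-value difference from 2.92 to 19.6 and the replicate overlap from 6.08 to 10.1 points, the last with an adjusted p between 0.0232 and 0.0732 (exact permutation tests). With 1 mean per antibody the H3K9me3 (56.7), repeated share (71.6), -log10 Q-value (17.7) and replicate (8.55) differences did not pass the threshold (exact permutation tests over 6 values). In an alternative chosen after seeing the data, they were 54.0, 66.3, 32.4 and 11.6 within the 6 libraries of FruCOM, Su(H) and Trl, whose peak names share a prefix, and within the 4 of Su(z)12 and Caf-1, which share another, they were 58.3, 71.6, 4.74 and 8.71, where 4 values allow no exact permutation p under 0.125, so that none could pass, and the density ratio turned to 0.18 in the second of these. The density ratio also turned to 0.38 with peaks of a -log10 Q-value above 10 and to 0.018 by summed peak length. In unique sequence it was -3.18, lower on Y in 12 of 12 libraries and past the threshold. An added count of 0.5 sets the size of this ratio in the 7 libraries with no mostly unique Y peak. Replicate overlap did not pass with a -log10 Q-value above 10 (1.88 points) or against chromosome 4 alone (2.86). Without tandem repeats, also chosen after seeing the data, the -log10 Q-value difference (-0.52) and replicate overlap (-3.19) reversed in the 11 libraries that remained, while without Trl replicate 1 alone, the library this drops, they were 2.92 and 6.08. The cause of these shifts was not tested. No paired analysis was possible because the groups that share replicate numbers are not compared: each library's Y peaks are set against its own other peaks, and the window tables hold no value per sample. Depth is unknown, so a Y region without a peak in a library may be bound there.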
